A study of Mus musculus with 40 samples.

Results

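The comparison is of mouse livers 72 h after partial hepatectomy (PH, the surgical removal of part of the liver, after which the remnant grows back) in mice of 12 months and in mice of 3 months. Each age is represented by 4 mice that had received no inhibitor. The members are all 11119 genes of the deposited tables, each with the mean of its 4 mice at 12 months minus the mean of its 4 mice at 3 months, and the 8 samples belong to a series of 40. The other groups used beside them were 12- and 3-month livers at 0 h (8 and 7 samples) and at 48 h (3 and 3 samples), and livers at 72 h after ATRi, an inhibitor of the checkpoint kinase ATR given 24 h after PH, at 12 and 3 months (4 and 4 samples). All 4 of the 12-month mice at 72 h, and 2 of the 4 3-month mice, also gave a 0 h sample. So did all of the 12-month ATRi mice at 72 h and some of the 3-month ones, by the mouse numbers in the labels. The labels name the tissue as liver and the cells as hepatocytes, the parenchymal cells of the liver. Strain, sex, genotype and the extraction protocol are not given in the sources used here. However, 3 of the 7 samples of 3 months at 0 h bear the mouse labels wt1, wt2 and wt3. All other mice are labelled by numbers alone, and the sources do not explain the difference.

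After PH the remaining hepatocytes leave their resting state, copy their DNA and divide, while they go on with their metabolic work and secrete the proteins of the acute phase response. Kupffer cells, the resident macrophages of the liver, and neutrophils that enter it release cytokines that start and shape this regrowth. Type I interferon is released when cells sense foreign or misplaced nucleic acid, and it acts through a receptor and the transcription factors downstream of it on a set of interferon-stimulated genes (ISGs) that carry a short promoter element, the interferon-stimulated response element (ISRE).

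Levels are log2 values of what the deposited tables name sigma, a quantity left undefined in the sources used here, so that a difference of 1 stands for a factor of 2 in sigma. For the untreated groups 1 mean per gene was deposited and no spread between mice, and no test on replicates could therefore be made of the age difference. Genes were counted by size, at a difference of 1 or more. As a yardstick for the spread between mice, the range of the 4 single livers of 12-month ATRi mice at 72 h is given beside a value, since these are the only livers with levels of their own. Read depth is unknown. Hepatocyte genes were at high levels in both groups, with Alb, the gene of serum albumin, at 16.01 at 12 months and 15.72 at 3 months. Markers of macrophages, endothelial cells and stellate cells were measured in both as well, so the RNA was not of hepatocytes alone.

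At 12 months 219 genes were higher by 1 or more (1.97% of all genes) and 86 were lower by 1 or more (0.773%). The median difference over all genes was −0.032 with quartiles of −0.217 and 0.173, and 9465 genes (85.12%) lay within 0.5 of 0. Differences of 2 or more were found in 20 higher genes and in 1 lower gene. Of the 219 higher genes, 144 differed by more than the range of the 4 ATRi livers (1.30% of all genes), and of the 86 lower genes 48 did (0.432%). The 4 livers spanned a median of 0.523 per gene. limma, given the spread of those livers in place of the unknown spread of the untreated mice, marked 122 genes as higher (1.10%) and 80 as lower (0.719%) at an adjusted p under 0.05. This is no test on the 8 mice compared, and without 1 of the lent livers the counts were 1 and 1. Over all sizes 45.3% of genes were above 0 and 54.6% below it. Just inside the size of 1 lay Perm1 (1.0) and C3 (1.003) and, among lower genes, Uhmk1 (−1.0) and Arl1 (−1.004). Just outside it lay Batf3 (0.991) and Ly6k (0.997) and, among lower genes, Csrnp1 (−0.998). With neighbours this close, the size is a line drawn through a continuous range.

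**Figure D1:**
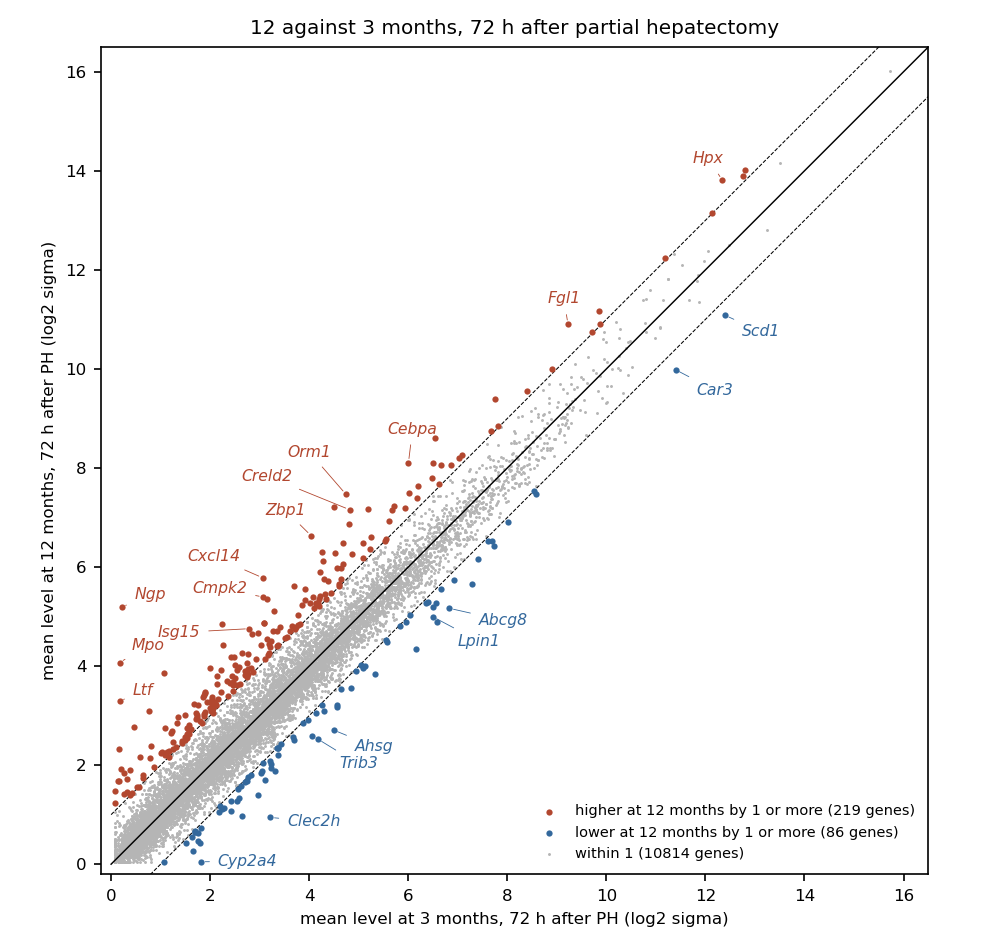
Mean log2 level of each gene at 12 months (vertical axis) against its mean at 3 months (horizontal axis), both 72 h after PH and each over 4 mice. Dashed lines mark a difference of 1 in either direction, with 219 genes above the upper line and 86 below the lower one, and the granule genes Ngp, Mpo and Ltf lie at the left edge because their 3-month means are near the lowest value of the table.

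The genes that led the higher side were of a few kinds. The neutrophil granule genes Ngp, Mpo and Ltf differed by 4.97, 3.90 and 3.11. Next to them stood Orm1 and Orm3, which encode the acute phase protein orosomucoid (2.73 and 2.71), the chemokines Cxcl14 (2.72) and Cxcl13 (2.62), and the nucleic acid sensor Zbp1 (2.60). Creld2, an endoplasmic reticulum (ER) protein made under folding stress, differed by 2.34, and Cebpa, a transcription factor that keeps hepatocytes differentiated, by 2.10. The remaining genes among the 25 largest differences included the ISGs Cmpk2, Ifi44, Isg15 and Rsad2, the apolipoprotein L genes Apol10b and Apol9b, Fam8a1, a partner of the ER-associated degradation machinery, and the olfactory receptor genes Olfr16, Olfr1028 and Olfr701. S1pr5, a receptor for the lipid sphingosine-1-phosphate, stood at 5.62 at 12 months and 3.68 at 3 months, and Dnajc12, a co-chaperone of the amino acid hydroxylases, at 6.87 at 12 months and 4.81 at 3 months. Orm1 and Orm3, and Apol9b and its neighbours, are near-identical copies between which reads may have been divided.

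Several of the genes at the other end act in metabolism. Clec2h, a lectin-like surface protein, had the most negative difference (−2.27, levels of 0.94 at 12 months and 3.22 at 3 months). Below it came Cabyr (−1.82), Ahsg, the gene of the plasma protein fetuin-A (−1.79), the cytochrome P450 genes Cyp2a4 (−1.77) and Cyp2b10 (−1.68), Etnppl, an enzyme of phospholipid turnover (−1.71), and Abcg8, a subunit of the transporter that moves sterols into bile (−1.67). The pseudokinase gene Trib3 (−1.66), the uridine phosphorylase gene Upp2 (−1.63), the steroid-metabolising Akr1c18 (−1.56), the phosphatidate phosphatase gene Lpin1 (−1.50) and the nuclear receptor gene Nr4a1 (−1.48) followed. Eno1 and Ndufa4, also among the 25 lowest differences, have processed copies in the genome, and their deposited levels (2.59 against 4.05 and 0.43 against 1.79) are uncertain for that reason.

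The sensors of foreign nucleic acid stand at the head of the interferon response. Of 22 measured sensor genes 18 were higher at 12 months, where 45.3% of all genes were above 0, and 3 were higher by 1 or more (13.6%, against 1.97% of all genes), with a median difference of 0.37. Zbp1, which recognises left-handed nucleic acid and can start cell death, stood at 6.64 at 12 months and 4.04 at 3 months. Before surgery its means had been 3.83 at 12 months and 3.84 at 3 months, and at 48 h 3.98 and 3.86. Of these 6 means the one of 12 months at 72 h thus stood alone, and the difference of 2.60 exceeded the range of 1.49 over the 4 ATRi livers. Zbp1 (ENSMUSG00000027514.14) lies on chromosome 2 from 173206612 to 173218923 (GRCm38, GENCODE M21).

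Other sensors followed with smaller differences. Dhx58, a regulator of the RIG-I-like RNA helicases, stood at 5.77 at 12 months and 4.30 at 3 months, and Ddx60, a helicase that assists them, at 2.56 at 12 months and 1.49 at 3 months. Nlrc5, the transactivator of MHC class I genes, differed by 0.91, the endosomal receptor genes Tlr9 and Tlr3 by 0.88 and 0.63, and Ddx58, which encodes RIG-I itself, by 0.77. In the other direction, Tmem173, the gene of the DNA pathway adaptor STING, stood at 2.27 at 12 months and 2.71 at 3 months (−0.44).

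ISG effectors, the proteins that block viral replication, held more such genes than the sensors. In all, 63 of 65 measured effector genes were higher at 12 months, 18 of them by 1 or more (27.7%), and 0 were lower by 1 or more. The median difference was 0.71, against −0.05 at 0 h and −0.09 at 48 h between the same ages. Under ATRi at 72 h it was 0.61. Cmpk2, a mitochondrial nucleotide kinase, stood at 5.39 at 12 months and 3.07 at 3 months. Ifi44, a GTP-binding ISG, stood at 5.35 at 12 months and 3.15 at 3 months. Isg15, a ubiquitin-like protein that is attached to others, stood at 4.76 at 12 months and 2.79 at 3 months. In all of them the 12-month mean at 72 h was above both means at 0 h, which for Isg15 were 3.13 at 12 months and 2.68 at 3 months.

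Rsad2 (viperin), an enzyme that makes a chain-terminating nucleotide, stood at 6.13 at 12 months and 4.28 at 3 months, while at 0 h the order had been the other way, at 3.83 at 12 months and 4.81 at 3 months. Oasl1, Xaf1 and Ifit3 differed by 1.81, 1.79 and 1.69. Of the oligoadenylate synthetase genes, whose products activate an RNase, Oas1a differed by 1.39, Oas3 by 1.33 and Oas2 by 0.93. Ifit2, a neighbour of Ifit3 in the same family, differed by 0.13, and the exoribonuclease gene Xrn1 was lowest at −0.30. Ifi27 differed by 1.31 and was also higher at 0 h (0.83) and 48 h (0.71).

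The promoters of 3 effectors and of Irgm2, a GTPase gene described further on, are shown because the ISRE core (GAAA, any 2 bases and GAAA again, searched on both strands) lies in the window, in capitals. Each is the 250 bases before the gene's start, 5′ to 3′ on the gene's own strand, from RefSeq (GRCm38.p6).
Isg15, chr4:156200819-156201068, minus strand: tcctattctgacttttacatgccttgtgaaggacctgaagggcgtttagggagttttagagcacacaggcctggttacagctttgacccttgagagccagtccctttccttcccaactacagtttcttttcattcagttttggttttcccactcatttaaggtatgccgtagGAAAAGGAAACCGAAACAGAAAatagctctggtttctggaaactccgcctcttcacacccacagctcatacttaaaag
Rsad2, chr12:26456453-26456702, minus strand: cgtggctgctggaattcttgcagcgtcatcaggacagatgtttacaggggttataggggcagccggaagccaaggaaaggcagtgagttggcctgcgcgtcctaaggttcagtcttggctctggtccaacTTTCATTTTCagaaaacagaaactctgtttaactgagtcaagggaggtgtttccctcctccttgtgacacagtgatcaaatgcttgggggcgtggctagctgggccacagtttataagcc
Ifit3, chr19:34583279-34583528, plus strand: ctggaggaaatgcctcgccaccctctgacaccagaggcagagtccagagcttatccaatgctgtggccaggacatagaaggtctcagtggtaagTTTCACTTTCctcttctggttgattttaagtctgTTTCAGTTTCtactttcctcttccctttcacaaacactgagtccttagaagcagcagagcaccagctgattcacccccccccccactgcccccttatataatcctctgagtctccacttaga
Irgm2, chr11:58214727-58214976, plus strand: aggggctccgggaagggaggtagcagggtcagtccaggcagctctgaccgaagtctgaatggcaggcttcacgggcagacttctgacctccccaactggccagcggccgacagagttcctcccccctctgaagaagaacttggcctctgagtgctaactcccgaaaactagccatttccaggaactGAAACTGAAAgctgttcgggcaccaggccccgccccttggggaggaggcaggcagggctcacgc
In Isg15 the core occurs 3 times in overlap, from 78 to 57 bases before the start. Ifit3 has 2 matches, and Rsad2 and Irgm2 have 1 each. Over the windows of 250 bases before to 50 after the start, 3.99% of 27025 genes of the promoter table hold the core, as do 25 of 58 ISG effectors with a window (43.1%) and 14 of 19 genes of the interferon lists that were higher by 1 or more (73.7%). The windows of Cmpk2, Ifi44, Oasl1 and Xaf1 hold no match to these letters. A match is only a run of letters in the window, and these lists were drawn up from what is known of interferon, so the shares describe the lists and not the age difference.

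Regulators of the pathway differed less. Of 19 measured regulator genes 13 were higher, with a median of 0.17, and 1 was higher by 1 or more. That gene was Usp18, which removes ISG15 from its targets and dampens the receptor, at 5.55 at 12 months and 3.91 at 3 months. Stat2, a transcription factor of the pathway, differed by 0.68, the receptor chain gene Ifnar2 by 0.85 and Ifngr2, a chain of the interferon-γ receptor, by 0.83. The feedback inhibitors of cytokine signalling Cish (−0.75) and Socs3 (−0.47) were on the low side, and Irf1, an early transcription factor of the response, differed by −0.06.

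Among the interferon-inducible GTPases, which act on the vacuoles of intracellular pathogens, 12 of 15 were higher and 3 by 1 or more, with a median of 0.33. Gbp3 stood at 5.40 at 12 months and 4.08 at 3 months, Irgm2 at 6.36 at 12 months and 5.23 at 3 months and Igtp at 5.27 at 12 months and 4.18 at 3 months. The ages had differed the other way at 0 h in these genes, by −0.38, −0.72 and −0.55.

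The single livers bear on how an age difference of this size compares with differences between mice. Relative to the 3-month mean, the median of the ISG effectors was 0.05, 0.35, 0.94 and 0.08 in ATRi livers M545, M546, M547 and M548. One liver, M547, was therefore above the 12-month mean of untreated mice (0.71), and the other 3 were below it. For Isg15 the 4 livers stood at 2.49, 3.68, 5.32 and 2.92, for Ifi44 at 3.98, 4.10, 6.14 and 2.89 and for Zbp1 at 5.78, 6.04, 6.94 and 5.45. In Zbp1 all 4 livers were above the 3-month mean of 4.04, which was not so for Isg15 or Ifi44. Of the 25 genes of the interferon lists that were higher by 1 or more, 4 differed by more than the livers' range. Among all 219 genes higher by 1 or more, 144 did.

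The authors' way of averaging matters here. For the ATRi group, the only one deposited both ways, the mean was nearer to the log2 of the linear average of the 4 livers than to the average of their log2 levels in 1651 of the 1862 genes whose livers spanned 1 or more. A linear average leans to the highest liver. The deposited mean matched neither form exactly. In those 1862 genes it lay a median of 0.099 above the log2 of the linear average and 0.21 above the average of log2 levels. Single livers and group means may therefore not be on quite the same scale, which limits comparisons between them. Whether 1 or several of the 4 untreated 12-month livers carried the interferon difference cannot be told apart in a mean.

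**Figure D2:**
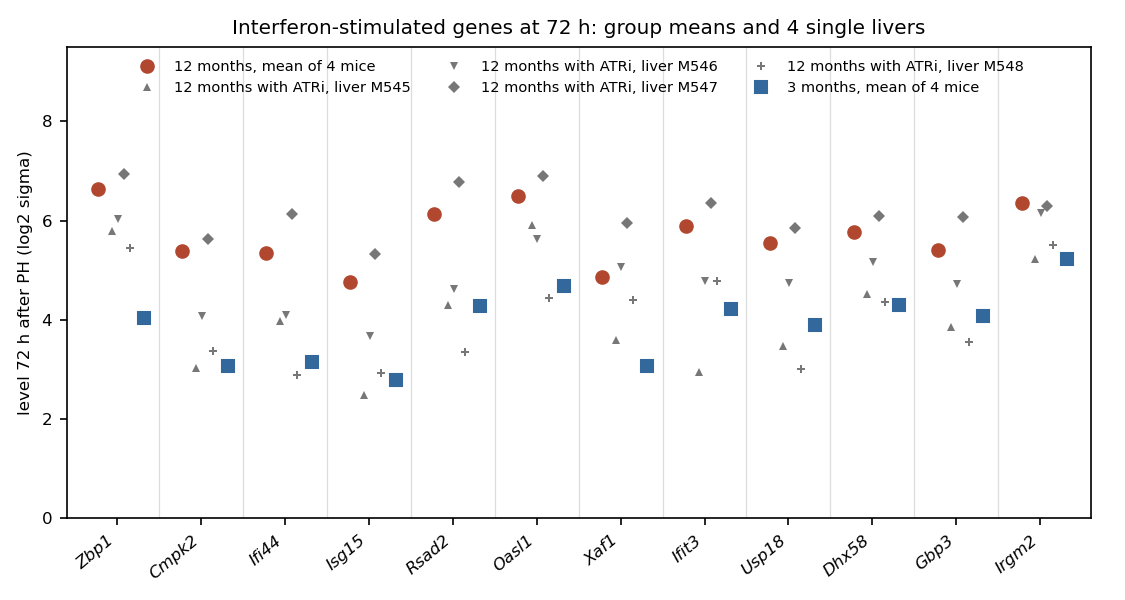
Log2 level at 72 h after PH of 12 interferon genes (horizontal axis) as the mean of 4 untreated 12-month mice (circles), the 4 single livers of 12-month ATRi mice (grey symbols) and the mean of 4 untreated 3-month mice (squares). The 12-month mean lies above the 3-month mean in each gene shown, and liver M547 is the highest of the 4 single livers in each of them.

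Antigen presentation genes, many of them under interferon control, were mostly higher. Of 13 measured genes of MHC class I and the immunoproteasome 12 were higher, 3 by 1 or more, with a median of 0.63 at 72 h, 0.26 at 0 h and −0.06 at 48 h. H2-Q4 stood at 6.07 at 12 months and 4.68 at 3 months and H2-Q6 at 7.18 at 12 months and 5.93 at 3 months, but the H2-Q genes are near-identical copies and their levels are uncertain one by one. The classical class I gene H2-K1 stood at 9.70 at 12 months and 9.07 at 3 months. All 10 measured class II genes were higher, with a median of 0.44 and 1 by 1 or more, the lysosomal protease gene Ctss at 5.26 at 12 months and 4.14 at 3 months, which is also a macrophage gene. Cd74, the invariant chain, differed by 0.62.

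The acute phase response, in which hepatocytes release plasma proteins under interleukin 6 and interleukin 1, differed in both directions. Of 40 measured genes 32 were higher, 14 by 1 or more (35%), and 2 were lower by 1 or more (5%, against 0.773% of all genes). The median difference was 0.57 at 72 h, 0.07 at 48 h and 0.59 at 0 h, so that the ages had stood about as far apart before surgery. Under ATRi at 72 h it was 1.28. Orm1 stood at 7.47 at 12 months and 4.74 at 3 months at 72 h, with a range of 1.66 over the ATRi livers. Before surgery its means had been 6.86 at 12 months and 5.38 at 3 months, and at 48 h 4.86 and 5.93, so that at 48 h the 3-month mean was the higher one.

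Several plasma proteins with very high levels took part. Hpx, whose product hemopexin binds free heme, stood at 13.81 at 12 months and 12.34 at 3 months. Fga, a chain of fibrinogen, stood at 14.01 at 12 months and 12.81 at 3 months, and Fgl1, a fibrinogen-like hepatokine, at 10.90 at 12 months and 9.23 at 3 months. Lbp, the lipopolysaccharide-binding protein, differed by 1.47, Itih3 by 1.31, ceruloplasmin (Cp) by 1.10 and Steap4, a metalloreductase, by 1.64. The differences of Hpx and Fgl1 exceeded the livers' ranges of 0.57 and 0.88, and under quantile normalization of both means the difference of Hpx was 0.87. Fgb, the gene of another fibrinogen chain, differed by 0.14.

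Of the proteins whose plasma level goes down in the acute phase, some were on the low side. Alb, which is also of this kind, was not, at 16.01 at 12 months and 15.72 at 3 months. Ahsg stood at 2.71 at 12 months and 4.49 at 3 months, after 2.97 at 12 months and 3.23 at 3 months at 0 h. Its 12-month mean at 72 h was near the median level of all genes (2.63), and how its reads were counted is unknown. In the 4 ATRi livers, also of 12 months, Ahsg stood at 4.80, 3.77, 4.29 and 5.07, all above the untreated mean of 12 months. Serpina3k stood at 6.43 at 12 months and 7.74 at 3 months, and Ttr, the gene of transthyretin, at 12.81 at 12 months and 13.24 at 3 months. Il1rn, the antagonist of the interleukin 1 receptor, was on the other side at 3.64 at 12 months and 2.14 at 3 months.

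Genes of NF-κB, the transcription factor behind much of this response, were higher in 28 of 34 with a median of 0.26, and 3 were higher by 1 or more. Tifa, an adaptor upstream of NF-κB, stood at 8.60 at 12 months and 6.54 at 3 months. Tnfaip3, whose product A20 is a feedback inhibitor, stood at 4.18 at 12 months and 2.48 at 3 months, and Tlr2, a receptor for bacterial lipoproteins, at 3.45 at 12 months and 1.90 at 3 months. All of these had differed by more at 0 h, by 3.44, 1.91 and 2.17.

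Of 38 measured chemokine and cytokine genes 29 were higher and 8 by 1 or more, with a median of 0.32. Before surgery 29 had been higher and 10 by 1 or more, with a median of 0.46. Cxcl14 stood at 5.78 at 12 months and 3.06 at 3 months and Cxcl13, which attracts B cells, at 4.85 at 12 months and 2.24 at 3 months. At 48 h Cxcl14 had been the other way round (−1.90) while Cxcl13 had not (1.03), and at 0 h they had differed by 2.89 and 1.68. Il1b stood at 4.42 at 12 months and 3.02 at 3 months, and Cxcl12, a chemokine made by stromal cells, at 8.27 at 12 months and 7.08 at 3 months with a range of 0.48 over the livers and a difference of 0.04 at 0 h. The neutrophil attractants Cxcl1 (−0.67) and Cxcl2 (−0.66) were on the low side, and the 4 livers spanned 4.67 in Cxcl1.

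Complement and coagulation genes were divided. Of 46 measured genes 28 were higher, with a median of 0.16, and 4 were higher by 1 or more. C3, the central complement protein, stood at 13.14 at 12 months and 12.14 at 3 months, and under quantile normalization of both means its difference was 0.55, short of 1. Serping1, the inhibitor of the first complement component, stood at 10.90 at 12 months and 9.88 at 3 months. Serpina7, a carrier of thyroid hormone, stood at 7.23 at 12 months and 5.71 at 3 months. Klkb1 (−0.75), which encodes plasma prekallikrein, Serpinf2 (−0.70), the plasmin inhibitor, and F11 (−0.57) were on the low side.

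Markers of blood-borne and resident phagocytes were higher as well, and in bulk liver more cells of a type and more RNA per cell cannot be told apart. All 17 measured neutrophil markers were higher, 8 by 1 or more (47.1%), with a median of 0.98. Before surgery 16 of the 17 had been higher, 4 by 1 or more, with a median of 0.81. The median age difference was −0.065 at 48 h and 1.51 under ATRi at 72 h. Ngp, a granule protein of immature neutrophils, stood at 5.19 at 12 months and 0.22 at 3 months. Mpo (myeloperoxidase) stood at 4.07 at 12 months and 0.17 at 3 months and Ltf (lactoferrin) at 3.29 at 12 months and 0.18 at 3 months. In these granule genes the 3-month means were near 0.081, the lowest value of the 3-month table, so their differences depend on that floor, and 9 of the markers were under 0.5 at 3 months. Markers at higher levels differed less, Csf3r by 0.92 and Lcn2, which hepatocytes make too, by 0.20. In the 4 ATRi livers Mpo ran from 0.83 to 4.59, so that mice of 1 age and treatment can differ in it nearly as much as these groups did. At 48 h Ngp had been the other way round (−0.63). Ly6g, the surface marker of neutrophils, was near the floor in both groups (0.09 against 0.08). The summed linear level of the list was 922 at 12 months and 683 at 3 months at 72 h, and 890 and 522 at 0 h.

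Kupffer cell and macrophage markers were higher in 26 of 28, 10 of them by 1 or more (35.7%), with a median of 0.76. Lyz2, a lysozyme of myeloid cells, stood at 6.31 at 12 months and 4.27 at 3 months, and the scavenger receptor gene Marco at 7.17 at 12 months and 5.18 at 3 months. Cd5l, made by tissue macrophages, stood at 8.10 at 12 months and 6.51 at 3 months, and Csf1r, the receptor on which these cells depend, at 6.25 at 12 months and 4.86 at 3 months. Clec4f and Timd4, which mark resident Kupffer cells, differed by 0.91 and 0.94, and the monocyte receptor gene Ccr2 by 0.65. At 0 h the median had been 0.50 and at 48 h −0.22, and under ATRi at 72 h it was 1.14. The summed linear level was 1399 at 12 months and 712 at 3 months, and the part of these cells in the inflammatory and interferon differences was not tested.

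Other cell types differed less. T and NK cell markers had a median of 0.13, B and plasma cell markers 0.19, dendritic cell markers 0.08 and erythroid markers 0.17. Among members at a level of 1 or more in at least 1 mean the medians were 0.326, 0.356, 0.213 and −0.101 in the same order. The summed linear level was 37 at 12 months and 31.2 at 3 months for T and NK cells, and 50.3 and 46.5 for B and plasma cells. Endothelial markers were higher in 8 of 27 with a median of −0.11 and 0 past 1 in either direction, and the summed linear level was 744 at 12 months and 750 at 3 months. Of the markers of stellate cells and fibroblasts, 5 of 29 were higher, with a median of −0.32. The contractile genes Myl9 (2.20 against 3.37) and Acta2 (1.27 against 2.42) and the collagen genes Col1a2 (−0.84) and Col3a1 (−0.81) were lower at 12 months.

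**Figure D3:**
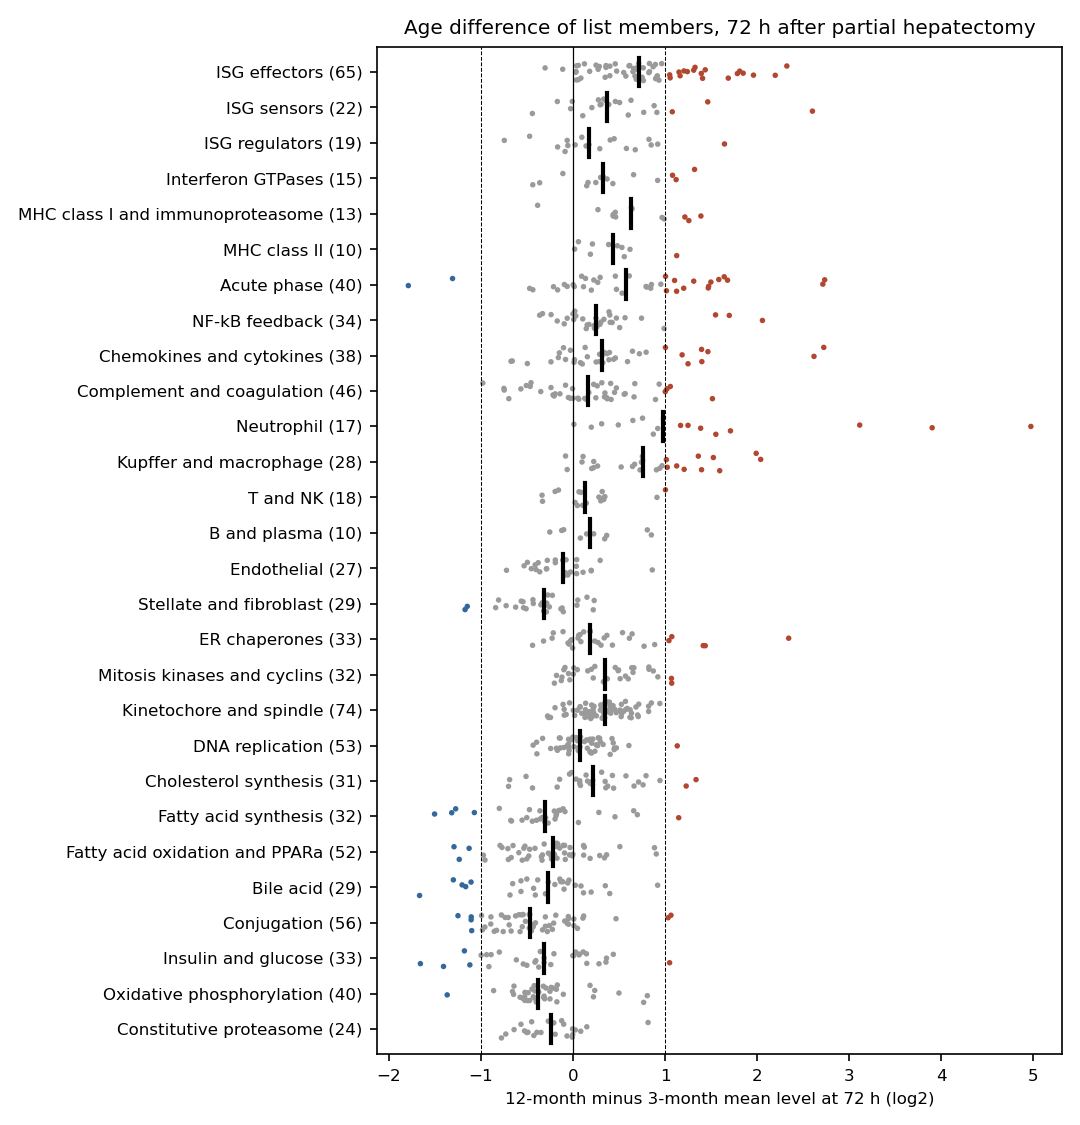
Difference of each list member between 12 and 3 months at 72 h (horizontal axis, log2), with a row per list, its number of measured members in brackets and the list's median as a black bar. Interferon, acute phase and phagocyte lists lie to the right of 0, division lists a little to the right with few members past 1, and most lists of metabolism to the left, cholesterol synthesis excepted.

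ER chaperones fold the proteins that hepatocytes secrete, and their genes are switched on through the ER stress response element (ERSE). Of 33 measured genes 23 were higher, with a median of 0.19, and 5 were higher by 1 or more (15.2%). Creld2 stood at 7.16 at 12 months and 4.82 at 3 months, and Hyou1, an ER member of the heat shock proteins, at 8.07 at 12 months and 6.65 at 3 months. Pdia4, a disulfide isomerase, stood at 8.75 at 12 months and 7.68 at 3 months, and Hsp90b1, an ER-resident heat shock protein that folds receptors, at 10.74 at 12 months and 9.70 at 3 months. The joined entry of Syvn1, the ubiquitin ligase of ER-associated degradation, and its neighbour Mrpl49 stood at 7.64 at 12 months and 6.20 at 3 months. Of these 5 only Creld2 exceeded the range of the livers, and Creld2 had been apart at 0 h as well (1.47).
The promoters of Creld2 and Hsp90b1 are shown because both hold the full ERSE (CCAAT, any 9 bases and CCACG, on either strand), in capitals, in the 250 bases before the gene's start, 5′ to 3′ on the gene's strand (RefSeq, GRCm38.p6).
Creld2, chr15:88819396-88819645, plus strand: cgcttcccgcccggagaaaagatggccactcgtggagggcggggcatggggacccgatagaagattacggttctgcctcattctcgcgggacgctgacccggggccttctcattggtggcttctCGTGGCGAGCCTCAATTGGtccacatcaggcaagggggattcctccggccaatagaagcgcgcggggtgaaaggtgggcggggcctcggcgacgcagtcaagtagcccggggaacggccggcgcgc
Hsp90b1, chr10:86705445-86705694, minus strand: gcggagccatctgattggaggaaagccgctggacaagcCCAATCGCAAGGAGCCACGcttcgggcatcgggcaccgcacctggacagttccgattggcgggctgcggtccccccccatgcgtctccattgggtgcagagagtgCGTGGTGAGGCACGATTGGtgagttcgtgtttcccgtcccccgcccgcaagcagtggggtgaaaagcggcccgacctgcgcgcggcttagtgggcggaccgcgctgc
The element occurs in 0.137% of the 27025 genes of the promoter table and in 7 of 27 ER chaperone genes with a window (25.9%), whatever their difference.

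The other branch of the stress response, which runs through the transcription factor ATF4 to amino acid supply, had no such genes higher by 1 or more, with 10 of 26 genes higher and a median of −0.04. Its largest difference was in Trib3, a pseudokinase that restrains insulin signalling, at 2.52 at 12 months and 4.18 at 3 months with a range of 0.51 over the livers. At 48 h Trib3 had been the other way round (1.10). Gdf15, a secreted stress hormone, differed by 0.38.

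Genes of cell division were higher at 12 months in most members but by small amounts. Of 74 measured kinetochore and spindle genes 65 were higher with a median of 0.34, and 0 were past 1 in either direction. Of 32 mitotic kinase and cyclin genes 24 were higher with a median of 0.35, and 2 were higher by 1 or more. Plk1, a kinase of mitotic entry, stood at 5.15 at 12 months and 4.28 at 3 months, and Nek2, a kinase of centrosome separation, at 5.99 at 12 months and 5.06 at 3 months. Aurka, a spindle kinase, differed by 0.83, Cenpa, the centromeric histone, by 0.94, and Ube2s, which extends ubiquitin chains for the anaphase-promoting complex, by 1.07. The 4 livers spanned 2.07 in Plk1 and 0.63 in Nek2. Mki67, a marker of cycling cells, was close between the ages at 4.22 at 12 months and 4.31 at 3 months.

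Set against 0 h, the kinetochore list was higher at 72 h by a median of 1.80 at 12 months and 1.39 at 3 months, and the mitosis list by 1.49 and 1.07. At 48 h the age difference of these lists had been 0.02 and −0.04, and under ATRi at 72 h it was −0.12 and −0.11. Without ATRi, both ages thus had division genes above their 0 h level at 72 h. The ages differed in them by less than either differed from its own 0 h mean. The median level of the kinetochore list at 72 h was 2.93 at 12 months and 2.6 at 3 months without ATRi, and 2.76 and 2.97 with it. Without ATRi it had been higher at 48 h, at 3.67 and 3.61, and at 0 h it had been 0.93 and 0.98.

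DNA replication genes were nearly level, with 34 of 53 higher and a median of 0.08. Cdt1, which loads the replicative helicase onto origins, was the 1 gene past 1, at 3.83 at 12 months and 2.70 at 3 months with a range of 0.38 over the livers. Nucleotide supply had a median of −0.16 and G1/S regulators −0.04. Cdkn2a, the cell cycle inhibitor locus that marks aged cells, stood at 1.44 at 12 months and 0.43 at 3 months, both low levels, after 1.33 and 0.59 at 0 h. Myc was lower (2.37 against 3.03).

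The inhibitor used elsewhere in the series acts on ATR, the kinase that answers stalled replication forks, and its gene and that of its relative ATM were lower at 12 months. Atr stood at 2.51 at 12 months and 2.998 at 3 months and Atm at 1.55 at 12 months and 2.13 at 3 months, with ranges of 0.36 and 0.32 over the livers. Of 55 measured checkpoint and fork repair genes 31 were higher, 0 were past 1 in either direction, and the median was 0.07. Fancb, of the crosslink repair core complex, differed by 0.85, Xrcc3 by 0.70 and Atrip, the partner of ATR, by 0.49. Targets of p53 had a median of 0.06 with 1 of 34 past 1, the membrane protein gene Perp at 6.53 at 12 months and 5.52 at 3 months, and Phlda3 differed by 0.84.

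Lipid synthesis was split between its branches. Cholesterol synthesis genes were higher in 23 of 31, with a median of 0.21 and 2 by 1 or more, the farnesyl diphosphate synthase gene Fdps and the squalene epoxidase gene Sqle. Fdps stood at 5.97 at 12 months and 4.64 at 3 months and Sqle at 7.40 at 12 months and 6.17 at 3 months. Neither exceeded the range of the livers (2.21 and 1.40). Fatty acid synthesis genes were higher in 6 of 32, with a median of −0.30 and 4 lower by 1 or more (12.5%). Scd1, which makes monounsaturated fatty acids, stood at 11.08 at 12 months and 12.40 at 3 months. Lpin1, at the step to diacylglycerol, stood at 4.995 at 12 months and 6.50 at 3 months, and Pnpla3, a lipid droplet protein, at 1.68 at 12 months and 2.75 at 3 months.

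In Scd1 the means had been closer at 0 h (11.91 at 12 months and 11.44 at 3 months) and farther apart at 48 h (7.41 and 12.05). In Pnpla3 they had been the other way round at 0 h (4.08 at 12 months and 2.27 at 3 months). The exception on the high side was Acsl3, a fatty acyl-CoA synthetase gene, at 4.80 at 12 months and 3.65 at 3 months.

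Fatty acid oxidation and PPARα target genes were higher in 10 of 52, with a median of −0.22 at 72 h, 0.66 at 48 h and −0.43 at 0 h. The ages thus stood apart in opposite directions at 48 and 72 h, in different mice. Ehhadh, the peroxisomal bifunctional enzyme, stood at 6.16 at 12 months and 7.40 at 3 months with a range of 0.29 over the livers. The ω-hydroxylase gene Cyp4a14 differed by −0.97, after −5.02 at 0 h and 3.75 at 48 h.

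Bile acid genes were higher in 7 of 29, with a median of −0.27 and 5 lower by 1 or more (17.2%). Abcg5 and Abcg8 together form the exporter of sterols into bile, and their levels were lower at 12 months. Abcg5 stood at 5.20 at 12 months and 6.49 at 3 months and Abcg8 at 5.17 at 12 months and 6.83 at 3 months. The genes overlap on chromosome 17 (84658234 to 84683011 on the minus strand and 84676302 to 84700333 on the plus strand, GRCm38), and reads from one may have been counted in the other. Cyp7a1, which sets the pace of bile acid synthesis, stood at 6.52 at 12 months and 7.69 at 3 months, and the 4 livers spanned 5.07. The uptake transporter genes Slco1a4 (−1.20) and Slco1a1 (−1.11) and the bilirubin and phospholipid exporters Abcc2 (−0.56) and Abcb4 (−0.65) were on the same side.

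**Figure D4:**
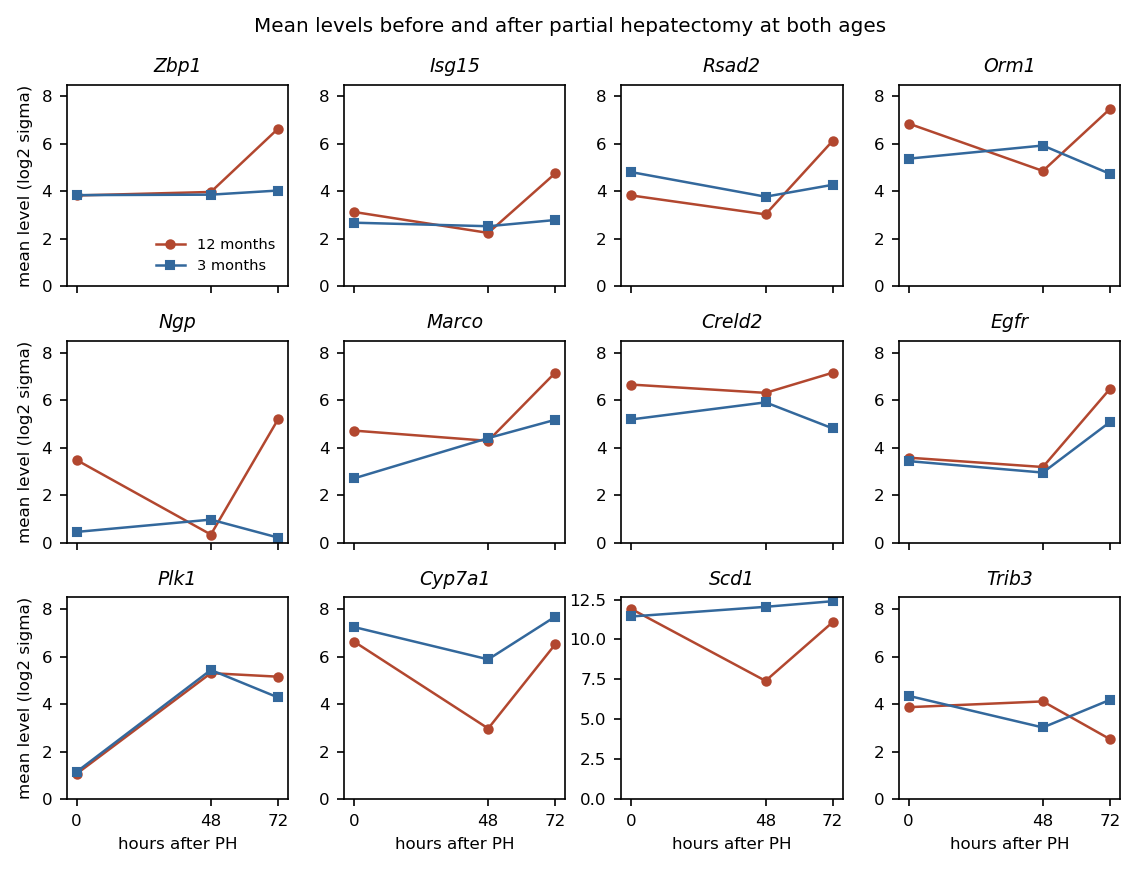
Mean log2 level (vertical axes, sigma) of 12 genes at 0, 48 and 72 h after PH (horizontal axes) at 12 months (circles) and 3 months (squares). The 12-month lines of Zbp1, Isg15 and Rsad2 climb away from the 3-month lines between 48 and 72 h, those of Orm1 and Ngp cross between 0 and 48 h and again by 72 h, and Plk1 is far above its 0 h level at both ages.

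Zonal and detoxifying functions of hepatocytes were lower at 12 months in most members. Periportal genes, of urea and amino acid metabolism, had a median of −0.29 (12 of 37 higher), and Ass1, of the urea cycle, stood at 5.27 at 12 months and 6.55 at 3 months. Cps1, the first enzyme of that cycle, stood at 9.32 at 12 months and 10.02 at 3 months. Tat, a tyrosine aminotransferase induced by glucocorticoids, was on the other side at 7.68 at 12 months and 6.63 at 3 months. Pericentral genes had a median of −0.20 (13 of 38), and cytochrome P450 genes −0.14 (8 of 36). At 0 h the medians had been −0.22 for periportal, −0.015 for pericentral and −0.23 for cytochrome P450 genes. Cyp2b10, the target gene of the receptor CAR, stood at 0.97 at 12 months and 2.65 at 3 months, after 0.71 and 0.93 at 0 h. Cyp2a4, with 0.05 against 1.82, shares most of its sequence with Cyp2a5, and both levels are uncertain. The 12-month mean of Cyp2a4 was at or near the lowest value of the 12-month means (0.049), so its difference depends on that floor.

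Conjugating enzymes, which attach sulfate, glucuronate or glutathione, had the most negative median of the 53 lists, −0.47, with 8 of 56 genes higher and 4 lower by 1 or more. Among them were the sulfotransferase genes Sult1d1 (6.91 against 8.01) and Sult5a1 (3.53 against 4.63). The 2 members higher by 1 or more, Gstp1 and Gstp2, are near-identical copies and differed by 1.07 and 1.03. At 0 h the median of the conjugating enzymes had been −0.25.

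Transcription factors that define hepatocytes did not differ in 1 direction. The list of hepatocyte identity had a median of −0.03, which turns to 0.007 when centred on all genes. Cebpa stood apart, at 8.11 at 12 months and 6.004 at 3 months while the 4 ATRi livers stood at 6.93, 6.75, 6.68 and 6.92. At 0 h its means were 8.39 at 12 months and 7.15 at 3 months, and at 48 h 6.53 and 7.72. The ages therefore differed in opposite directions at 48 and 72 h. Hnf4a, the central regulator of hepatocyte genes, stood at 7.58 at 12 months and 7.88 at 3 months.

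Among growth signals Egfr, the receptor for epidermal growth factor, stood at 6.48 at 12 months and 5.08 at 3 months, after 3.58 and 3.44 at 0 h, so that both ages were above their 0 h level. Errfi1, the feedback inhibitor of that receptor, stood at 9.55 at 12 months and 8.40 at 3 months. The list of growth factor genes had a median of 0.04. Insulin and glucose genes had a median of −0.31, with 4 of 33 lower by 1 or more, among them Irs2 and Slc2a2. Irs2, an insulin receptor substrate, stood at 4.01 at 12 months and 5.13 at 3 months, and Slc2a2, the hepatocyte glucose transporter, at 5.74 at 12 months and 6.92 at 3 months. Ppp1r3g, a glycogen-targeting subunit, stood at 1.70 at 12 months and 3.10 at 3 months.

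Immediate early genes differed in both directions (2 higher and 4 lower by 1 or more of 29). Nr4a1 stood at 3.85 at 12 months and 5.33 at 3 months and Klf10, a target of transforming growth factor β, at 3.18 at 12 months and 4.57 at 3 months. Jund, a subunit of the transcription factor AP-1, was on the other side at 8.07 at 12 months and 6.86 at 3 months. At 0 h Nr4a1 had been the other way round (1.21). Clock genes had a median of −0.19 with 0 past 1. The repressor gene Nr1d1 stood at 7.01 at 12 months and 7.84 at 3 months and its target Arntl at 2.28 at 12 months and 1.54 at 3 months, and the hour of sampling is not given in the sources used here.

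Housekeeping machinery was a little lower. Nuclear genes of oxidative phosphorylation were higher in 6 of 40 with a median of −0.37, against −0.02 at 0 h. Ndufv1, of complex I, differed by −0.57 with a range of 0.13 over the livers, and Sdhb, of complex II, by −0.54. Constitutive proteasome genes had a median of −0.24 (4 of 24 higher), and ribosome biogenesis genes −0.19 (4 of 37). Ribosomal protein genes had a median of 0.06, which was −0.119 among genes at a level of 1 or more in at least 1 mean.

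Further lists differed in both directions. Genes that respond to growth hormone or differ between the sexes in mouse liver had a median of −0.18, with 5 of 34 lower by 1 or more (14.7%, against 0.773% of all genes) and 0 higher, and it had been −0.30 at 0 h. Targets of NRF2, a transcription factor of the response to oxidative stress, had a median of −0.20 (6 of 21 higher). The 1 past 1 was Keap1, the inhibitor of NRF2, at 4.71 at 12 months and 3.61 at 3 months. Apolipoprotein and lipoprotein genes had a median of −0.03 and senescence genes 0.10, with 0 and 1 higher by 1 or more. Car3, a carbonic anhydrase of pericentral hepatocytes, stood at 9.98 at 12 months and 11.40 at 3 months, and the 4 livers spanned 7.15 in it.

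Part of the 72 h differences had counterparts in the other groups of the same ages. Of the 219 higher genes 52 (23.7%) were higher by 1 or more at 0 h too, which is 53.6% of the 97 genes counted there (0.872% of all genes), and the 0 h means include mice measured at 72 h. At 48 h, in different mice, 9 (4.1%) were, which is 10.3% of the 87 counted there (0.782% of all genes). Under ATRi at 72 h, 152 (69.4%) were, which is 12.8% of the 1184 counted there (10.6% of all genes). Of the 86 lower genes 8 (9.3%) were lower by 1 or more at 0 h (18.2% of the 44 genes there, which are 0.396% of all genes). At 48 h 11 (12.8%) were (17.2% of 64 genes, or 0.576% of all), and under ATRi 35 (40.7%) were (13.1% of 267 genes, or 2.40% of all). In all, 78 of the higher and 53 of the lower genes had differed by less than 0.5 at 0 h.

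Higher by 1 or more at 12 months at 0, 48 and 72 h and under ATRi were 4 genes, namely Olfr1028, Olfr701, Cxcl13 and Serpina7, and no gene was lower by as much in all of them. Olfr1028 and Olfr701 belong to the olfactory receptors, which serve in the nose. Olfr1028 had a mean of 2.76 at 12 months and 0.46 at 3 months at 72 h, and Olfr701 one of 2.34 at 12 months and 0.17 at 3 months. Around each lie further receptor genes. On chromosome 7, from Olfr695 to Olfr704, 6 of 7 measured neighbours of Olfr701 were higher at 12 months at 72 h with a median of 0.688, and all 7 were at 48 h (0.529) and 4 at 0 h (0.026). On chromosome 2, up to Olfr1033, all 4 measured neighbours of Olfr1028 were higher at 72 h with a median of 0.584, and 2 of the 4 were at 0 h (0.064). The stretches were picked after their values were seen. The 22 measured olfactory receptor genes outside these stretches had a median of 0.029.

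In the chromosome 7 stretch the highest 12-month means were those of Olfr701, with 2.71 at 48 h and 2.34 at 72 h, and the highest mean of any 3-month group was 0.555. Olfr16, the third olfactory receptor gene among the largest differences, lies on chromosome 1 and stood at 3.86 at 12 months and 1.07 at 3 months. Serpina7 had been farther apart at 0 h (2.29). At the smaller size of 0.5, 19 genes were higher and 16 lower in all of these comparisons, among the lower ones the clock output gene Tef (−0.96), the bile acid enzyme gene Cyp7a1 and the collagen gene Col3a1. Strain and source of the mice of each age are not given in the sources used here, and an effect of age and one of origin cannot be told apart.

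**Figure D5:**
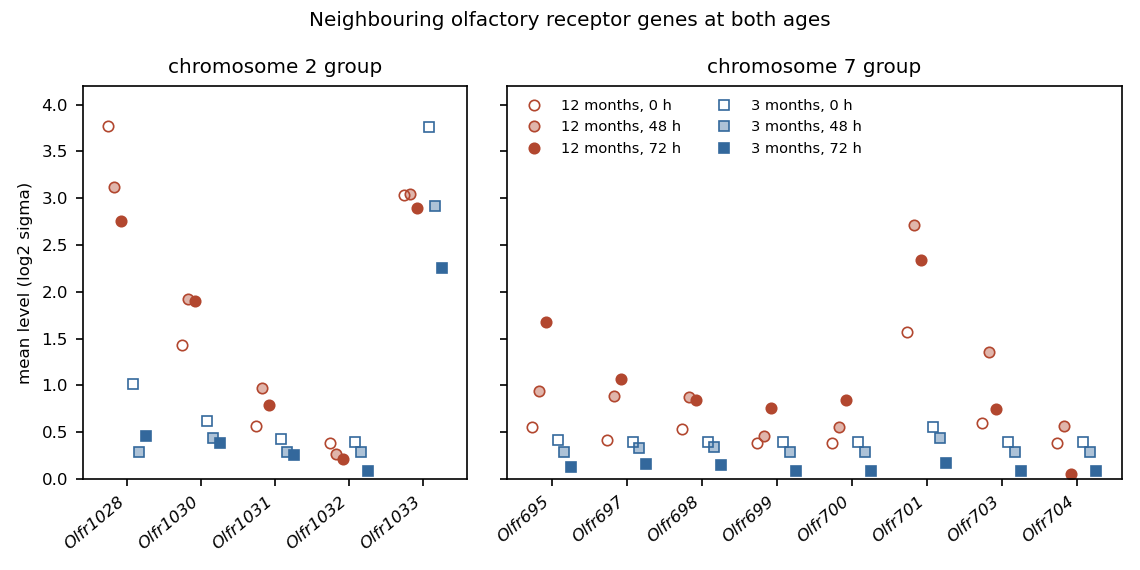
Mean log2 level (vertical axis, sigma) of neighbouring olfactory receptor genes on chromosome 2 (left) and chromosome 7 (right) in order of position, at 12 months (circles) and 3 months (squares), with open, pale and filled symbols for 0, 48 and 72 h. On chromosome 7 Olfr701 reaches 2.71 at 12 months, and the 3-month means of all 8 genes stay at or below 0.555 at each time.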

How the data were processed

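PolyA RNA of mouse livers was sequenced. For each of the 9 groups the authors deposited a table of gene levels, given as log2 of sigma per the file headers, and for 12-month ATRi livers at 72 h 4 tables of single livers too. Except for these livers only group means were available here. The reads were placed on GRCm38 (mm10), per the submitters' processing notes. The definition of sigma, the scaling between samples, the aligner, the counting and any filter are not given in the sources used here, and depth is unknown, so no counting interval could be given and low levels may be noise. The tables list the same 11119 genes, some under joined names where transcripts overlap.

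The 2 means were subtracted gene by gene as deposited, with Python 3.11.15 and pandas 2.3.3. Differences of 1 or more were counted. Members of 53 gene lists were described by counts and medians beside those of all genes. Both the members and the lists were chosen with earlier results of these data known. Genes were named by rule, namely the 25 largest and 25 smallest differences, passing over predicted and joined entries, and the 8 members of each list with the largest absolute difference. Others named for their role, such as Alb, Hnf4a, Mki67, Irf1, Atrip and Timd4, were chosen after their values were seen. A few genes are not reported here. Coordinates come from GENCODE M21 (10409 genes matched by symbol and chromosome, 93.6%), and promoters from RefSeq.

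As an alternative to the size rule, limma 3.58.1 in R 4.3.3 was fitted across all genes with the spread of the 4 ATRi livers lent to both means and Benjamini-Hochberg adjustment, an assumption that these data cannot check. The code was tested on simulated data. Other alternatives were another size, level filters, centring, quantile normalization and leaving out joined entries.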

Additional observations from a re-analysis of the deposited data

Results flagged for a closer look

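In 4 lists 1 of the 4 single ATRi livers of 12-month mice stood far from the other 3. The measure was the median over the list of the liver's level minus the untreated 3-month mean at 72 h, and the liver was M545 each time. For Kupffer cell and macrophage markers it had a median of 0.931, against 0.406, 0.478 and 0.405 in M546, M547 and M548. Complement and coagulation genes gave −0.094 in M545, with 0.217, 0.175 and 0.202 in the others. For bile acid genes the value was −0.108, beside −0.205, −0.192 and −0.194. Lipoprotein genes gave 0.134, beside −0.200, −0.247 and −0.215. Over the lists, which share the same livers, chance alone flags about 1 in 20. These livers are those of the 12-month ATRi mean. No 72 h mean of untreated mice contains them, but the same mice, by their labels, gave samples to the 12-month mean at 0 h.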

How the results depend on the processing

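The 219 higher and 86 lower genes were 915 and 739 at a difference of 0.5, and 60 and 11 at 1.5. With a difference also larger than the range of the 4 ATRi livers they were 144 and 48. limma with the spread of those livers, which is no test on the mice compared, called 122 higher and 80 lower at an adjusted p under 0.05, and 2186 genes in both directions at an unadjusted p under 0.05. It leaned on single livers, with 1 to 186 higher and 1 to 136 lower when each was left out in turn, a step added after the data were seen. Without M545 it called 101 and 35, without M546 186 and 136, without M547 6 and 2, and without M548 1 and 1, and the cause was not tested. Both counts stayed within 1.5 times under the level filters, both centrings, quantile normalization and without joined entries. Of the list medians, those of hepatocyte identity (0.007), lipoproteins (0.002) and fibrinolysis (0.014) changed sign when centred on all genes. With a level of 1 or more in at least 1 mean, the medians of erythroid markers (−0.101) and ribosomal proteins (−0.119) did. Without joined entries and members of other lists, those of metal and iron genes (−0.198) and ribosomal proteins (−0.025) did. No difference of a named gene changed sign under centring or quantile normalization. No paired analysis was possible because only group means of the untreated mice were used, and the result comes from no test on replicates. Levels near the floor limit the differences of the granule and olfactory receptor genes and of Cyp2a4.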

Other observations

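The age difference went a little with base composition. Among genes with a transcript sequence, the median difference was −0.077 in the fifth of genes with the lowest GC content (32.6 to 44.0%) and 0.013 in the fifth with the highest (55.4 to 73.1%). Genes higher by 1 or more numbered 41, 31, 37, 50 and 55 from the lowest to the highest of these groups, and genes lower by 1 or more 30, 14, 17, 9 and 15. At 0 h the medians ran between −0.118 and 0.002 in the same order. The part of base composition in the differences was not tested.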
